A study of Homo sapiens with 4 samples.

Results

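The genes described are 10 factors, feedback inhibitors, cytokines and an adhesion molecule tied to NF-kB signalling. They were chosen by name, with earlier results of these data known: NFKB1, RELA, NFKBIA, NFKBIZ, TNFAIP3, CXCL8, CXCL1, LIF, IL11 and ICAM1. They are 10 of 57891 annotated genes in the count table, and 9 of them had counts and at least 5 CPM (counts per 1000000 counts of the library) in 1 or more libraries. They were followed in AC16, an established human line that came from a fusion of ventricular heart muscle cells with a fibroblast line and that the labels call cardiomyocyte. The groups were untreated cells (0 min) and cells kept for 10, 30 or 360 min in 10 nM doxorubicin, an anthracycline cancer drug that poisons topoisomerase II on DNA, each with 1 poly(A) RNA library. Cells were washed and received the drug in fresh serum-free medium, and all were detached with trypsin before lysis. Whether untreated cells also lost their serum is not stated, so drug, wash, medium change and loss of serum cannot be told apart in any comparison with 0 min.

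NF-kB is a family of dimeric transcription factors, here the subunits encoded by NFKB1 and RELA, that inhibitory IkB proteins hold in the cytoplasm until the IKK kinases mark those inhibitors for destruction. Freed dimers switch on genes for chemokines, cytokines and adhesion molecules, and also for their own inhibitors, so that NFKBIA and TNFAIP3 transcripts are standard readouts of the feedback arm. LIF and IL-11 belong to the interleukin-6 family, which signals through the shared receptor IL6ST (gp130), and both act on heart muscle cells and cardiac fibroblasts.

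The promoters show what the members share in sequence, and 5 are printed, picked by role and with their values known: the chemokine pair CXCL8 and CXCL1, of which the second was listed at 0, the feedback inhibitor NFKBIA, the adhesion gene ICAM1 and the cytokine gene IL11. Each line gives the 250 bases upstream of the RefSeq transcription start, 5′ to 3′ on the gene's own strand (RefSeq, GRCh38.p14). Capitals mark matches to the kB-type pattern GGANNTTCC, searched on both strands, and to the AP-1 pattern TGANTCA, which is its own reverse complement; no match of one overlapped a match of the other. The windows are chr4:73740319-73740568 (plus strand) for CXCL8, chr4:73869143-73869392 (plus) for CXCL1, chr14:35404750-35404999 (minus) for NFKBIA, chr19:10270870-10271119 (plus) for ICAM1 and chr19:55370464-55370713 (minus) for IL11.
CXCL8: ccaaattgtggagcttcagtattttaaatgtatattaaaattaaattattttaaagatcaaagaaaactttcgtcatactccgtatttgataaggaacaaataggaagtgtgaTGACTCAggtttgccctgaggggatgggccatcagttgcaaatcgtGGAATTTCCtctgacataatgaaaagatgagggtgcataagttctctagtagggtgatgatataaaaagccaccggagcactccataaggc
CXCL1: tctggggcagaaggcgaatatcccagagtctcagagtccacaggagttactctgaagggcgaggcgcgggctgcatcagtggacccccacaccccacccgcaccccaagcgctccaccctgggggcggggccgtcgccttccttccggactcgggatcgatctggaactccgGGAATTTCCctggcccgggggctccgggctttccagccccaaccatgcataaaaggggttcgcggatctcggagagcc
NFKBIA: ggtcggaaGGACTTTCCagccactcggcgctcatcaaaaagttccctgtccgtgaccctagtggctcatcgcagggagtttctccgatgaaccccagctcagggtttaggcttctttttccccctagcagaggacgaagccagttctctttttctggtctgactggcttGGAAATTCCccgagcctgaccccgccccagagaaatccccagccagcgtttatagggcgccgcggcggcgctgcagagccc
ICAM1: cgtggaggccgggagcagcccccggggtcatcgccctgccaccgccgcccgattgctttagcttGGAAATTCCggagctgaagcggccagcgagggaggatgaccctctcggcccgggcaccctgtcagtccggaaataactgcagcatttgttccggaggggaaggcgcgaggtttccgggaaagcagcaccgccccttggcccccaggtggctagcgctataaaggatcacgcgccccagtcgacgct
IL11: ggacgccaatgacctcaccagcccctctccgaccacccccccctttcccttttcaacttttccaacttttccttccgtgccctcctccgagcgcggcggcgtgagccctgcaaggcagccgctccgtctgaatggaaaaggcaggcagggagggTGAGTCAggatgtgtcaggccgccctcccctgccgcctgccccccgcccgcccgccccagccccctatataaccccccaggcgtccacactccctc

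Of the 10 genes, 9 had a promoter in the RefSeq table, and LIF is named only. The kB-type pattern was found upstream of 7 of the 9 (CXCL8, CXCL1, NFKBIZ, NFKBIA, NFKB1, ICAM1 and TNFAIP3), while 3.84% of 35116 RefSeq promoters of the same length hold it. The members were picked as NF-kB genes, so that share is a description of the choice. The 7 of 9 also counts genes, while the percentage counts promoters, of which the 9 genes have 12. NFKBIZ and NFKB1 have more than 1 promoter, and only 1 of each holds a match. CXCL8 and CXCL1 carry the same letters, GGAATTTCC, at positions -91 to -83 and -78 to -70 from their starts. NFKBIA holds 2 matches, GGACTTTCC at -242 to -234 and GGAAATTCC at -81 to -73, and the ICAM1 match GGAAATTCC lies at -186 to -178. The AP-1 pattern, in 6.57% of all promoters, was found upstream of CXCL8 (TGACTCA, -137 to -131) and IL11 (TGAGTCA, -96 to -90). A match says only that the letters are there.

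The libraries held 55156612 to 56875881 deposited counts, taken as 13789153 to 14218970 read pairs. A gene's level is the sum of its annotated transcripts (GENCODE 29) in CPM. To be called higher or lower, a gene had to differ 2-fold, reach 5 CPM in the higher of the pair, and have a 95% counting interval clear of 1. Ranges after a ratio are those intervals, which cover counting error only, and with 1 library per time no p-value was computed. The 10 min library stood apart: 14.5% of 11892 compared genes were called against 0 min, compared with 6.8% of 11533 at 30 min and 6.59% of 11511 at 360 min. Of 12 cardiomyocyte markers 5 reached 1 CPM, and the 12 summed to 126 CPM at 10 min, 184 at 30 min and 126 at 360 min, against 92.4 at 0 min. NPPB, the natriuretic peptide gene, made up most of the 30 min sum with 122 CPM, against 37.1 CPM at 0 min, and was called higher (3.29-fold); its part, and that of the marker sum, in the 30 min calls described next was not tested. ACTC1 and MYBPC3 were at 0 in every library, and TNNT2 lay between 0.0363 and 0.162 CPM. The leukocyte marker PTPRC stayed at or below 0.217 CPM, and the summed fibroblast markers were 13776 CPM at 10 min, 8981 at 30 min and 8897 at 360 min, against 10522 at 0 min. In bulk RNA, fewer cells of a type and less RNA per cell cannot be told apart.

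At 30 min the chemokine gene CXCL8, the cytokine gene LIF and the IkB-family gene NFKBIZ were called higher, 3 of 8 compared members, and no member was lower. Of all genes compared at 30 min, 3.55% were called higher and 3.25% lower. At 10 min ICAM1 and NFKBIZ were called higher and IL11 lower among 7 compared members, against 7.69% of all genes higher and 6.85% lower. At 360 min ICAM1 and NFKBIZ were called higher among 7 compared members, against 3.26% of all genes higher and 3.34% lower. The NFKBIZ calls at 10 and 360 min did not hold when reads in its unannotated transcript models were included. Over the 9 members with counts the median log2 ratio was -0.26 at 10 min, 0.78 at 30 min and 0.14 at 360 min, beside -0.04, -0.01 and 0.01 over all genes compared. In annotated transcripts CXCL8, LIF, NFKBIZ and ICAM1 had 0.949, 0.176, 3.48 and 2.67 CPM at 0 min, all under 5 CPM. They were compared only where the treated library reached 5 CPM, so none of them could be called lower. Every higher call against 0 min fell on these genes. These 3 comparisons share the 0 min library.

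**Figure D1:**
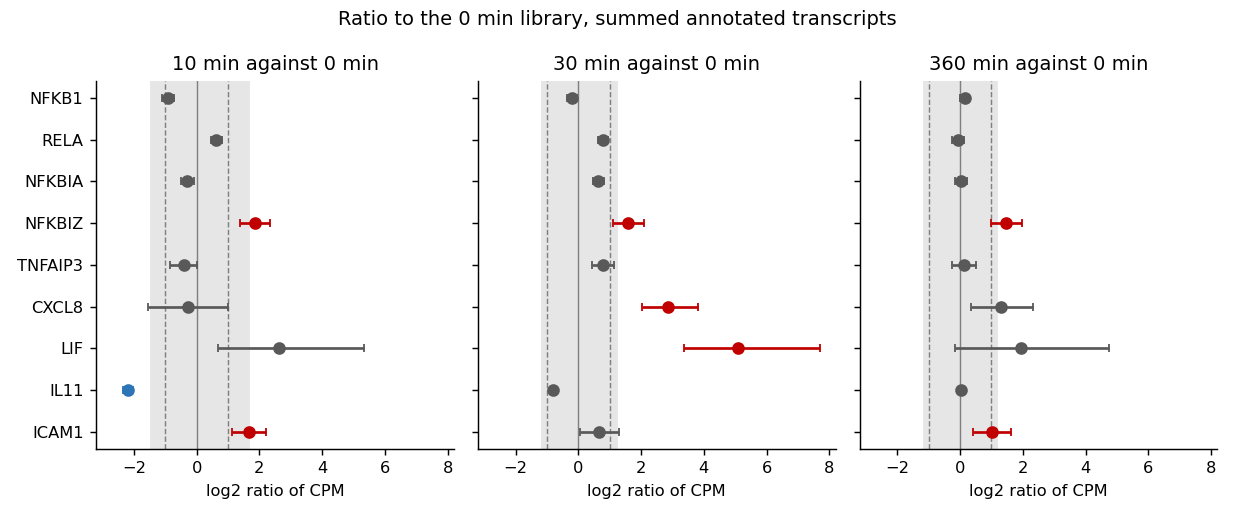
Log2 ratio of CPM to the 0 min library for 9 members at 10, 30 and 360 min, from summed annotated transcripts; bars are 95% counting intervals, red points were called higher and blue lower, grey bands hold the middle 95% of all compared genes, and dashed lines mark 2-fold. CXCL8, LIF and NFKBIZ lie past the right dashed line at 30 min, and IL11 lies past the left one at 10 min. The NFKBIZ points at 10 and 360 min are not past 2-fold when the whole locus is counted.

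NFKB1 encodes p105, the precursor of p50, and RELA encodes p65; together p50 and p65 form the canonical dimer. Their 10 min ratios lay on opposite sides of 1, and neither gene was called against 0 min at any time. NFKB1 (ENSG00000109320, chromosome 4, 102501329 to 102617302, GRCh38) had 53.8, 28.6, 46.6 and 59.3 CPM at 0, 10, 30 and 360 min. The 10 min library was thus the lowest for NFKB1, at a ratio of 0.532 (0.470 to 0.601) to 0 min, just short of 2-fold. Its ratios at 30 and 360 min were 0.867 (0.780 to 0.964) and 1.10 (0.999 to 1.22), and the 360 min library stood 2.07-fold (1.84 to 2.34) above the 10 min one. The coding model NFKB1-202 held 78.8 to 85.3% of its counts in each library.

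RELA (ENSG00000173039, chromosome 11, 65653596 to 65663094) had 32.5, 50.2, 56.2 and 30.9 CPM at 0, 10, 30 and 360 min. The 10 and 30 min libraries were high and the outer 2 were alike within counting error, with ratios to 0 min of 1.54 (1.37 to 1.74), 1.73 (1.54 to 1.94) and 0.951 (0.832 to 1.09). Most of the difference lay in transcript models annotated as retained introns, which are spliced RNAs that keep intron sequence. Those models had 8.91, 26.8, 39.6 and 6.02 CPM over the 4 times, a ratio of 3.01 (2.45 to 3.71) at 10 min and 4.44 (3.66 to 5.44) at 30 min. Models annotated as targets of nonsense-mediated decay were lower in each treated library. They had 9.90 CPM at 0 min and 2.70, 0.561 and 0.544 CPM at 10, 30 and 360 min.

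Retained-intron models held 27.4% (exact binomial 95% interval 23.5 to 31.8) of RELA counts at 0 min, 53.4% (49.6 to 57.1) at 10 min, 70.5% (67.3 to 73.8) at 30 min and 19.5% (15.8 to 23.6) at 360 min. A single model, RELA-217 (ENST00000531484), accounted for 358, 1240, 2067 and 251 deposited counts over those times. The coding models of RELA had 13.7, 20.7, 16.0 and 24.4 CPM, so for them the 30 min ratio was 1.17 (0.959 to 1.42) and the 360 min ratio 1.78 (1.49 to 2.13). The coding series was therefore highest at 360 min, and the summed series at 30 min. The 360 min coding ratio stood beside a summed ratio of 0.951 and a nonsense-mediated decay ratio of 0.0549 (0.0225 to 0.114). Whether reads moved between the classes was not tested. Within the coding class, RELA-201 held 18.3 CPM at 10 min and 0.778 at 30 min, while RELA-226 held 0.0180 and 13.9 CPM, so the split of reads among similar models differed between libraries. How well the deposited estimates separate such models was not tested.

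**Figure D2:**
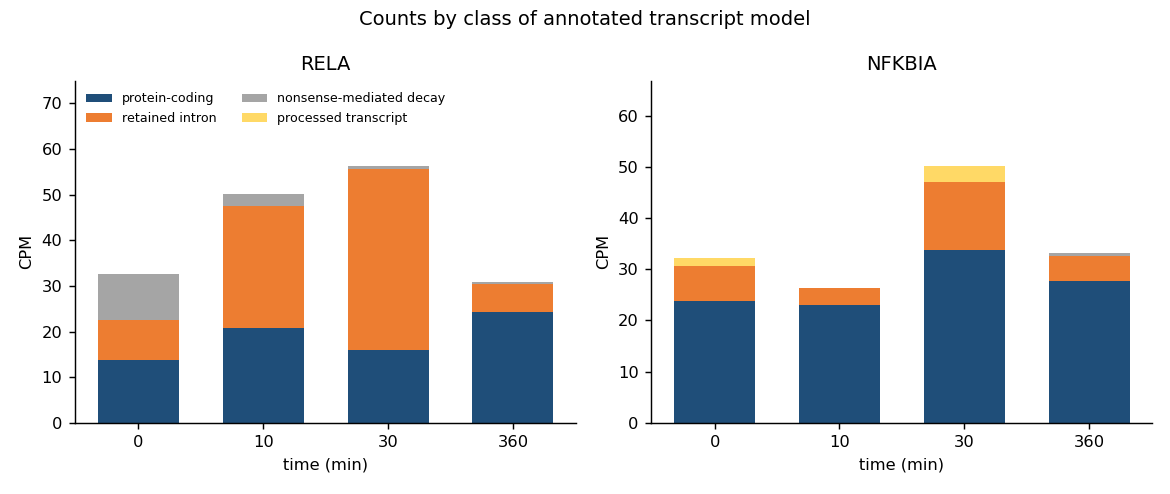
CPM of RELA and NFKBIA at 0, 10, 30 and 360 min, stacked by the class of annotated transcript model, with 1 library per bar. For RELA the retained-intron part is 39.6 CPM at 30 min against 8.91 CPM at 0 min, while the coding part is 16.0 against 13.7 CPM.

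NFKBIA encodes IkB-alpha, the inhibitor that NF-kB itself induces. NFKBIA (ENSG00000100906, chromosome 14, 35401511 to 35404749) had 32.3, 26.4, 50.1 and 33.2 CPM at 0, 10, 30 and 360 min. Only the 30 min library was high, at 1.55-fold (1.38 to 1.75) over 0 min and 1.90-fold (1.67 to 2.16) over 10 min, and neither reached 2-fold. The 360 min library was back at 1.03 (0.903 to 1.17). Coding models stood at 0.970 (0.830 to 1.13) at 10 min and 1.42 (1.23 to 1.64) at 30 min, and retained-intron models at 0.483 (0.332 to 0.693) and 1.94 (1.51 to 2.50).

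TNFAIP3 encodes A20, a ubiquitin-editing enzyme that ends signalling upstream of IKK. TNFAIP3 (ENSG00000118503, chromosome 6, 137867188 to 137883312) had 8.11, 6.08, 13.9 and 8.76 CPM over the 4 times. Its order was that of NFKBIA, lowest at 10 min and highest at 30 min, with ratios to 0 min of 0.750 (0.560 to 1.00), 1.71 (1.35 to 2.18) and 1.08 (0.830 to 1.41). Between neighbouring libraries it was 2.29-fold (1.76 to 2.99) higher at 30 than at 10 min, past the 2-fold rule, and the 360 to 30 min ratio was 0.630 (0.498 to 0.796). The leading coding model was TNFAIP3-206 at 10 min, with 75.7% of counts, and TNFAIP3-210 at the other 3 times, with 61.9 to 68.0%.

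NFKBIZ encodes IkB-zeta, a nuclear IkB protein that works with NF-kB on a subset of inflammatory genes. NFKBIZ (ENSG00000144802, chromosome 3, 101827991 to 101861022) had 3.48, 12.5, 10.5 and 9.70 CPM in annotated transcripts at 0, 10, 30 and 360 min. All 3 treated libraries were high by that measure, at 3.59-fold (2.60 to 5.03), 3.00-fold (2.16 to 4.24) and 2.79-fold (2.0 to 3.94). The authors' gene table also counts transcript models assembled from the reads in the same locus, and these held 69.1% of the NFKBIZ locus at 0 min, 34.4% at 10 min, 66.9% at 30 min and none at 360 min. With them the locus had 11.3, 19.1, 31.6 and 9.70 CPM. The whole-locus ratios were 1.69 (1.39 to 2.07), 2.81 (2.34 to 3.38) and 0.861 (0.679 to 1.09), so only the 30 min call held.

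CXCL8 encodes interleukin-8, the ELR chemokine that draws neutrophils, and CXCL1 its near relative in the same cluster on chromosome 4. CXCL8 (ENSG00000169429, chromosome 4, 73740506 to 73743716) had 54, 44, 384 and 129 deposited counts, or 0.949, 0.791, 6.95 and 2.34 CPM, at 0, 10, 30 and 360 min. The 30 min library stood alone at 7.32-fold (4.12 to 14.1) over 0 min and 8.78-fold (4.69 to 18.2) over 10 min. At 10 min the ratio to 0 min was 0.834 (0.340 to 2.0), from so few reads that even a 2-fold difference down lies within counting error. At 360 min it was 2.46 (1.27 to 5.05), under the 5 CPM needed for a call, and 0.337 (0.219 to 0.506) of the 30 min level.

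CXCL1 (ENSG00000163739, chromosome 4, 73869393 to 73871242) was listed at 0 in all 4 libraries, in the transcript table and in its own row of the gene table. The 95% counting interval of a count of 0 reached up to 0.259 to 0.268 CPM, with 4 counts taken as 1 read pair. CXCL1 has close copies in CXCL2 and CXCL3, and these and CXCL5 and CXCL6, singled out after their values were seen, were at 0 too. The neutrophil receptors for these chemokines were at 0 (CXCR1) or at most 0.281 CPM (CXCR2).

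LIF encodes leukaemia inhibitory factor. LIF (ENSG00000128342, chromosome 22, 30240447 to 30246851) had 10, 60, 332 and 37 deposited counts in annotated transcripts, or 0.176, 1.08, 6.01 and 0.671 CPM. The 30 min library was the highest, 34.2-fold (10.3 to 209) over 0 min, a wide range because the 0 min value rests on under 3 read pairs. Assembled models held 86.1 to 99.2% of the locus in every library, so the annotated sum covers only a small part of it. The whole locus had 20.9, 32.4, 43.2 and 25.0 CPM, with ratios of 1.55 (1.33 to 1.80), 2.06 (1.79 to 2.38) and 1.19 (1.02 to 1.40).

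The 30 min LIF call thus stood by both measures, at sizes far apart, and in the whole locus it was only just past 2-fold. The rank of the 4 libraries was the same by both. The whole locus includes the annotated counts, so the 2 measures are not separate. Assembled models alone had a 30 min ratio of 1.79 (1.55 to 2.07), short of 2-fold. Among 11787 whole loci compared at 30 min, 3.06% were called, 1.66% higher and 1.4% lower. By whole loci 3 members were called at 30 min (CXCL8, LIF and NFKBIZ), 2 at 10 min (ICAM1 and IL11) and 1 at 360 min (ICAM1). Of all whole loci, 10.9% were called at 10 min (6.2% higher, 4.7% lower) and 2.07% at 360 min (0.964% higher, 1.11% lower). For the other 7 members with counts the locus held no assembled models, and both measures were equal.

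**Figure D3:**
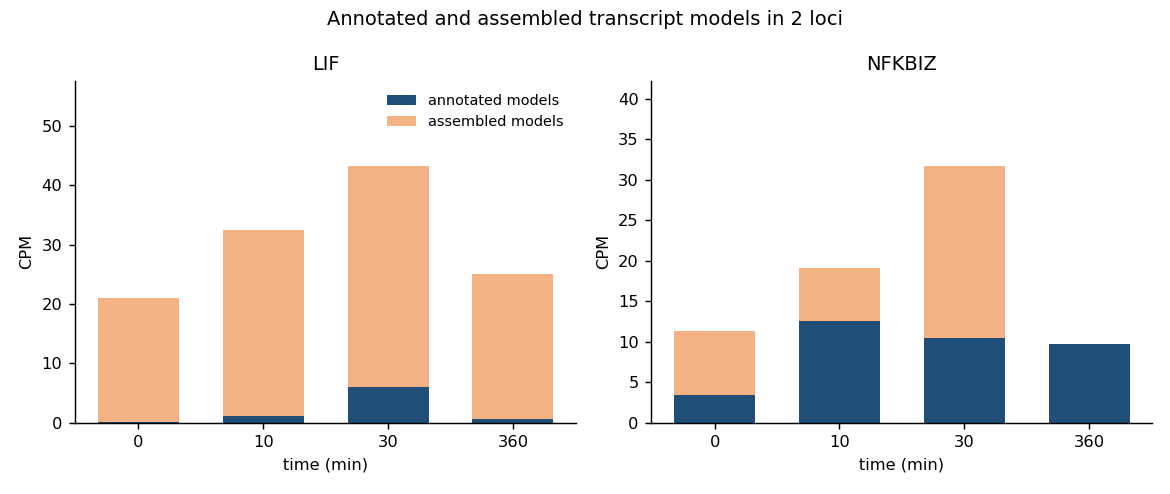
CPM of the LIF and NFKBIZ loci at 0, 10, 30 and 360 min, split into annotated and assembled transcript models, with 1 library per bar. Assembled models hold 99.2% of the LIF locus at 0 min, and none of the NFKBIZ locus at 360 min against 69.1% at 0 min.

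IL11 encodes interleukin-11, made by stromal cells and cardiac fibroblasts. IL11 (ENSG00000095752, chromosome 19, 55364389 to 55370463) had 136, 30.0, 78.4 and 137 CPM over the 4 times, the most of any member except at 10 min, when RELA had 50.2 CPM. It was 4.52-fold (4.07 to 5.04) lower at 10 min than at 0 min, at 0.577 (0.535 to 0.622) of it at 30 min and at 1.01 (0.949 to 1.08) at 360 min. Each step up from 10 min exceeded counting error, by 2.61-fold (2.33 to 2.93) to 30 min and by 1.75-fold (1.62 to 1.89) from there to 360 min. At 10 min its ratio lay below 1 and that of LIF, its family relative, above 1 by both measures.

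ICAM1 encodes the adhesion molecule that leukocyte integrins bind. ICAM1 (ENSG00000090339, chromosome 19, 10270835 to 10286615) had 2.67, 8.42, 4.22 and 5.37 CPM over the 4 times. The 10 min library was the highest at 3.15-fold (2.17 to 4.67) over 0 min, the 30 min one stood at 1.58 (1.03 to 2.44), and the 360 min one at 2.01-fold (1.34 to 3.05) was only just past the rule. The 30 and 360 min levels did not differ beyond counting error (ratio 1.27, 0.891 to 1.83). The 10 min library also had the highest sums of the fibroblast, endothelial, myeloid and lymphoid lists, but not of the cardiomyocyte and epithelial lists, which were highest at 30 min. The 7 endothelial markers summed to 13.5 CPM at 10 min, 7.38 at 30 min and 8.25 at 360 min, against 8.33 at 0 min, with KDR at 0 throughout and 2 markers at 1 CPM or more. The 9 myeloid markers summed to 67.3, 38.6 and 35.0 CPM at those times, against 38.8 at 0 min, with CD14, AIF1 and TYROBP at 0 throughout and 2 or 3 at 1 CPM or more. At 10 min the 1 endothelial and the 1 lymphoid marker compared were called higher, and neither of the 2 myeloid markers compared was called. The part of any of these lists in the ICAM1 level was not tested. An antisense gene shares 22.0% of its exon bases, and strand use in counting is not given in the sources used here, so reads of the 2 genes cannot be told apart there. No other member shared more than 5% of its exon bases with any single gene; LIF shared 4.41% with one antisense gene and 2.32% with another.

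**Figure D4:**
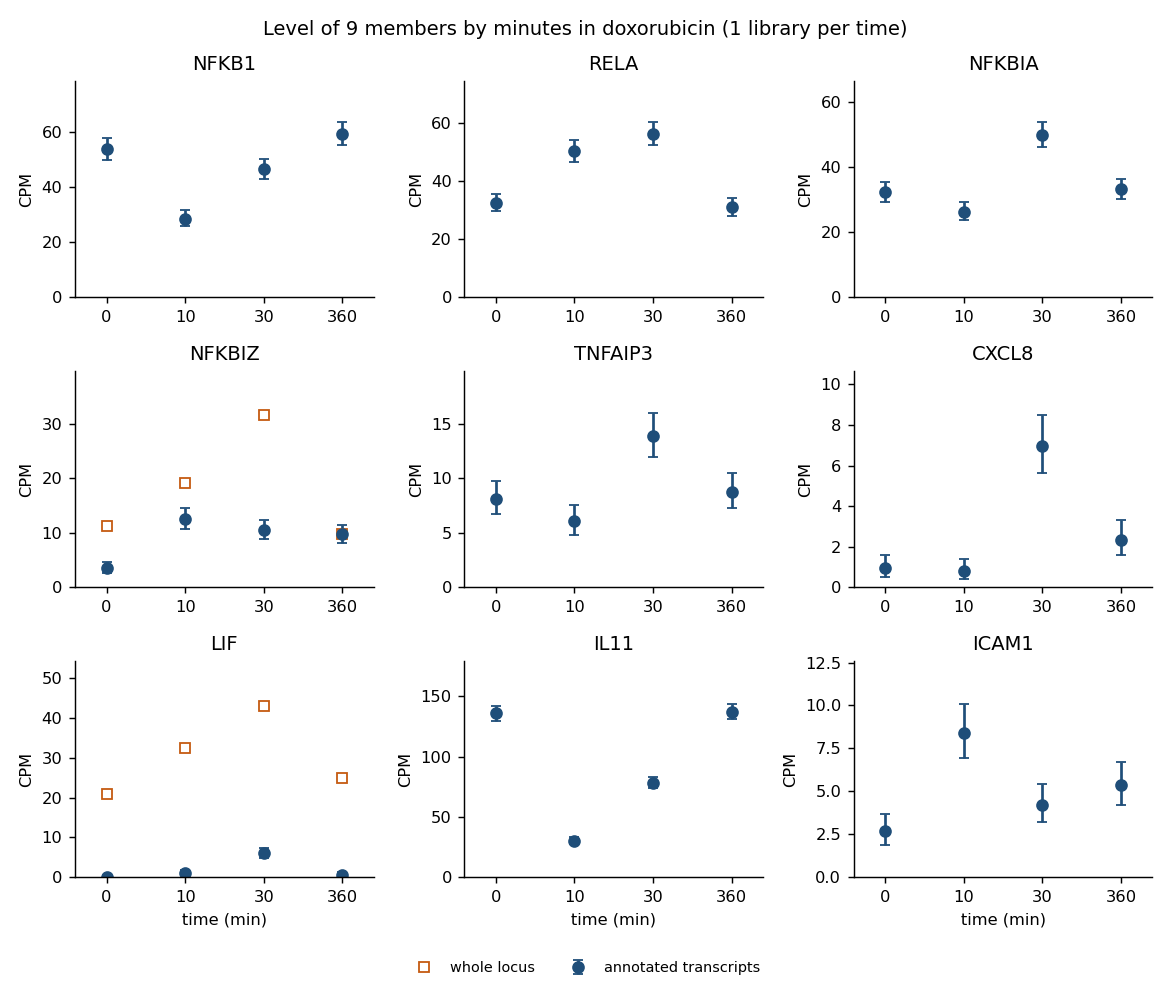
CPM of 9 members at 0, 10, 30 and 360 min in doxorubicin, 1 library per time; filled points are summed annotated transcripts with 95% Poisson counting intervals, and open squares the whole locus of NFKBIZ and LIF. RELA, NFKBIA, TNFAIP3, CXCL8 and LIF are highest at 30 min, and ICAM1 is highest at 10 min. IL11, NFKB1, NFKBIA, TNFAIP3 and CXCL8 are lowest at 10 min, the last 2 within counting error of 0 min.

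Between the treated libraries, 4 of 9 compared members (CXCL8, LIF, IL11 and TNFAIP3) were called higher at 30 than at 10 min, against 6.86% of all genes higher and 7.54% lower, and none was called lower. ICAM1 came closest to a lower call, at 0.501 (0.359 to 0.691), just short of 2-fold. By whole loci 3 were called (CXCL8, IL11 and TNFAIP3), against 4.88% of all loci higher and 6.26% lower, and LIF was at 1.33 (1.18 to 1.51). From 30 to 360 min CXCL8 and LIF were called lower, 2 of 9 compared, against 3.26% of all genes higher and 3.49% lower, and none was higher. In annotated transcripts CXCL8 and LIF reached 5 CPM only at 30 min. They were compared in these steps only through that library, so their calls could go in no other direction. By whole loci 2 were again called lower, against 1.15% of all loci higher and 1.52% lower, but they were CXCL8 and NFKBIZ, the second at 0.307 (0.251 to 0.373) of its 30 min level. Against 10 min, IL11 (4.58-fold) and NFKB1 were called higher at 360 min, 2 of 7 compared, and none lower, beside 7.99% of all genes higher and 9.13% lower; both were also called by whole loci, against 5.93% of all loci higher and 7.99% lower. LIF at 360 min was at 0.112 (0.0500 to 0.221) of its 30 min level in annotated transcripts and at 0.579 (0.506 to 0.662) in the whole locus, short of 2-fold. Levels between genes were set against each other per kilobase of annotated transcript, which leaves out the assembled models that held 99.2% of the LIF locus and 69.1% of the NFKBIZ locus at 0 min, so the places of these 2 genes in the order cover annotated transcripts only. On that scale IL11 (70.4 CPM per kb), NFKBIA (27.1), RELA (17.3) and NFKB1 (15.2) led at 0 min, and NFKBIZ, TNFAIP3, ICAM1, CXCL8 and LIF lay between 2.55 and 0.272. At 30 min NFKBIA (44.1) and IL11 (42.4) were nearly equal, and CXCL8 (4.88) stood above TNFAIP3 (4.01).

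The rest of the pathway was read from 8 lists of 133 genes, of which 118 had counts and 100 reached 1 CPM. Of the genes compared, 10 of 87 were higher and 2 lower at 10 min, 4 of 85 higher and none lower at 30 min, and 4 of 86 higher and 2 lower at 360 min. Over all genes compared, 7.69% were higher and 6.85% lower at 10 min, 3.55% and 3.25% at 30 min, and 3.26% and 3.34% at 360 min. The median log2 ratios were 0.16, 0.09 and 0.04, beside the values near 0 over all genes given above. These 22 calls fall on 18 genes. Of the 22, 19 could be tied to a single locus, and 8 of those 19 held there. All 8 lie in loci without assembled models, where both measures are equal and a call could not change. The 11 calls that were lost all lie in loci where assembled models held 27.7 to 70.2% of counts.

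The calls that held, all in loci without assembled models, were few and spread over the lists. At 10 min they were the receptor gene CD40 (2.42-fold), the interleukin-1 co-receptor gene IL1RAP (2.15-fold), the adaptor gene TRAF5 (2.22-fold) and the adhesion gene ICAM5 (2.58-fold), all higher. At 30 min the transcription factor genes ATF3 (3.58-fold, 2.98 to 4.31) and KLF6 (2.53-fold, 2.39 to 2.67) were higher. At 360 min CFLAR, which encodes the caspase-8 regulator FLIP, was higher (2.33-fold, 1.96 to 2.79) and the interleukin-1 receptor kinase gene IRAK2 lower (2.27-fold, 0.287 to 0.664 as a ratio).

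The calls that did not hold in the whole locus were TAX1BP1, an adaptor of A20, at all 3 times, TRAF2 and TNFAIP8 at 10 and 360 min, OSMR and MYD88 at 10 min, IL1R1 at 30 min and IRAK4 at 360 min. TAX1BP1 had ratios of 7.25, 10.9 and 9.48 in annotated transcripts and 1.05, 1.14 and 0.957 in the locus. TNFAIP8 turned from 2.24-fold higher in annotated transcripts at 10 min to a ratio of 0.491 (0.373 to 0.642) in the locus, past the rule in the other direction. BCL3, a nuclear IkB-family gene (2.36-fold higher), F11R (2.14-fold higher) and TRADD (2.03-fold lower), all at 10 min, could not be tied to a single locus.

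**Figure D5:**
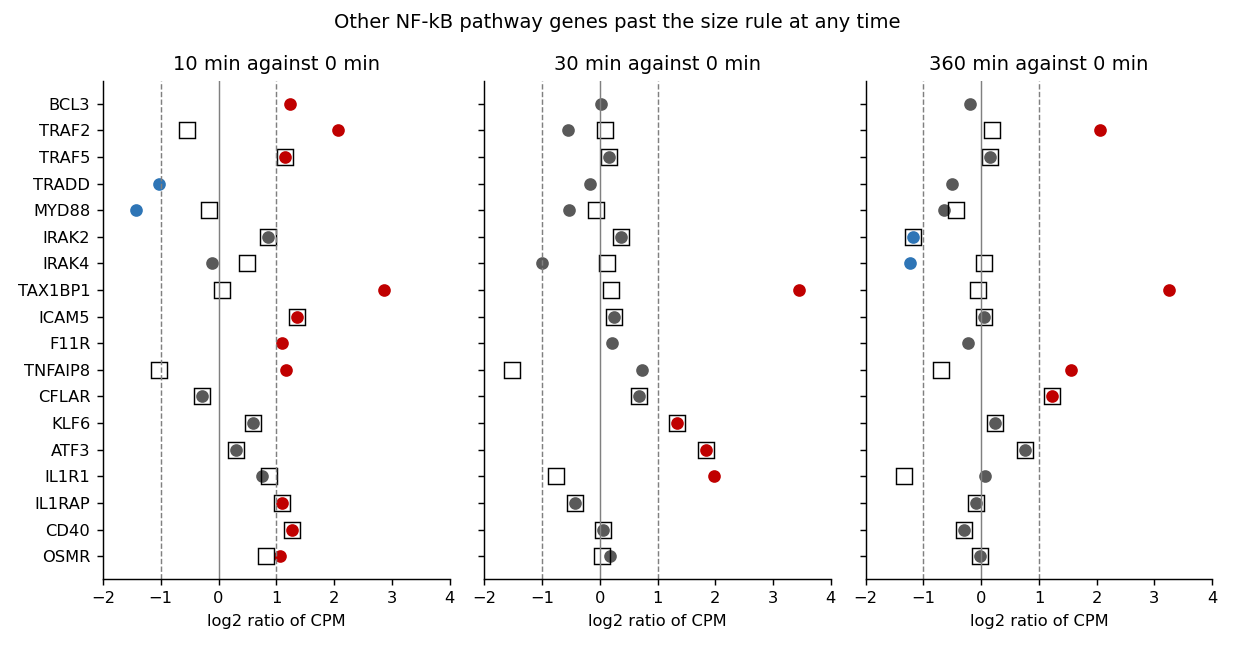
Log2 ratio of CPM to the 0 min library for the 18 other pathway genes called at any time; filled points are annotated transcripts (red called higher, blue lower, grey not called), open squares the whole locus where a single one could be tied to the gene, and dashed lines mark 2-fold. For TAX1BP1 the annotated ratios are 7.25 to 10.9 and the locus ratios 0.957 to 1.14.

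Of 25 listed cytokine, chemokine and enzyme targets of NF-kB, 17 had counts, 5 reached 1 CPM in any library and none of the 4 compared was called at any time. The most abundant was CSF1, the macrophage growth factor gene, with 177, 337, 190 and 145 CPM at 0, 10, 30 and 360 min and a 10 min ratio of 1.90 (1.81 to 2.0), just short of 2-fold. SOD2, the mitochondrial superoxide dismutase gene, had 53.3 to 69.2 CPM and IL32 at least 41.7 CPM. These genes were singled out after their values were seen. IL6, singled out after its values were seen, had 0, 0.306, 0.687 and 0.0907 CPM at 0, 10, 30 and 360 min. The receptors that LIF and IL-11 use, also chosen after their values were seen, were present: IL6ST at 303 to 401 CPM, LIFR at 94.9 to 112 CPM and IL11RA at 10.1 to 15.8 CPM. None of those 3 receptor genes was called at any time. Of the integrin subunits that bind ICAM1 on leukocytes, ITGAL was at most 1.60 CPM and ITGB2 at 11.9 to 13.2 CPM.

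Genes with the nearest course to CXCL8, IL11 and ICAM1 were sought by the Euclidean distance between the 3 log2 ratios to 0 min, over 12035 genes and 4 libraries. For IL11 the nearest was DPF1, a chromatin-remodelling subunit gene (distance 0.14), with 5.54, 1.28, 3.49 and 5.73 CPM over the 4 times and the same values in its locus. IER3IP1 (0.33), not tied to a locus, and ICK (0.34), whose locus ratios were 0.893, 0.890 and 0.934, followed. For CXCL8 they were DYRK1A (0.70), not tied to a locus, the Krüppel-like factor gene KLF2 (0.71; 7.49-fold at 30 min, 7.31-fold in the locus) and CHPT1 (1.00; 6.40-fold at 30 min, 1.53-fold in the locus). For ICAM1 they were ZNF84 (0.20; 3.14-fold at 10 min, 0.592 in the locus), MFGE8 (0.28; 2.83-fold, 1.53-fold in the locus) and the pseudogene RPS10P7 (0.29; 3.61-fold in both). All ratios share the 0 min library.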

How the data were processed

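Poly(A) RNA of AC16 cells from 4 times was sequenced, 1 library each; reverse transcription used the SmartScribe enzyme, per the labels' protocols. HISAT2, DESeq2 and GRCh38 are named in the submitters' processing notes, without versions; the counting tool, its annotation and any use of strand were not given in the sources used here. Deposited by the authors were estimated counts (expected counts, as whole numbers) for loci and for transcripts, without scaling for depth or length. Assembled models without annotation hold 11.1% of counts.

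Annotated transcripts were summed per GENCODE 29 gene (197268 of 215876 matched) and divided by the column total to give CPM. Low values piled up at multiples of 4 (35.5% of 11832 values, where even spacing gives 25%), but 2 was frequent too; 4 counts were taken as 1 read pair, which the values do not settle. Ratios have 95% exact conditional binomial (Clopper-Pearson) intervals, and a library at 0 entered at 3 pairs. A locus was tied to a gene where its counts less its assembled models equalled the gene's sum (at least 20 counts). No molecular identifiers are recorded, so intervals cover counting error only. No count model was fitted, as 1 library per time leaves no residual degrees of freedom. The members and lists were chosen with earlier results of these data known. All members are named, list genes where past the rule (up to 4 per list and time), and the 3 nearest profiles of 3 members. Alternatives were TMM and median-of-ratios scaling (edgeR 4.0.16, DESeq2 1.42.0, R 4.3.3), other pair values, coding transcripts only, other CPM minima and whole loci. Python 3.11.15, SciPy 1.17.1, pandas 2.3.3, numpy 2.4.6 and matplotlib 3.10.9 were used.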

Additional observations from a re-analysis of the deposited data

How the results depend on the processing

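Over 8 alternatives 203 of 216 member ratios kept their call or, where uncalled, stayed uncalled within their counting interval, and 1 reversed: NFKBIZ at 360 min, whose log2 ratio was -0.22 in the whole locus against 1.48 in annotated transcripts. In many of the 216 the ratio could not move. Other pair values and CPM minima leave a ratio as it is, and so do whole loci without assembled models. A CPM minimum can still change a call: 2 were gained with at least 1 CPM and 5 lost with at least 10 CPM. A kept call can also hide a change in size: LIF at 30 min went from a log2 ratio of 5.09 to 1.04 in the whole locus. Counting whole loci, a choice made for these counts after seeing the data, left 2 members called at 10 min in place of 3. At 360 min it left 1 in place of 2. Asking for at least 10 CPM left 2 members called at 10 min (IL11 and NFKBIZ) in place of 3, without ICAM1. It left 1 member called at 30 min (NFKBIZ) in place of 3, and 0 at 360 min in place of 2. The reason is that CXCL8, LIF and ICAM1 stay under 10 CPM in every library. NFKBIZ has 9.70 CPM at 360 min and 3.48 CPM at 0 min. Asking for at least 1 CPM raised the genes called over the series to 2953, 1474 and 1355 at 10, 30 and 360 min, in place of 1730, 784 and 759, and added LIF at 10 min and CXCL8 at 360 min among the members. With TMM or median-of-ratios scaling no member's call changed. None changed with 1 or 2 counts per read pair either, where ratios stay as they are and intervals only narrow. With coding transcripts only, the log2 ratio of RELA was 0.22 at 30 min and 0.83 at 360 min, and that of NFKBIA -0.04 at 10 min. No paired analysis was possible because each time has 1 library. CXCL8 at 0 and 10 min rested on at most 54 deposited counts each. LIF had 10 counts at 0 min and 37 at 360 min in annotated transcripts, where assembled models held 99.2% and 97.3% of its locus. No interval covers variation between cultures.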
